A study of Mus musculus with 3 samples.

Results

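Dense clusters of HBO1 peaks are stretches of the mouse genome in which 3 or more peaks of the HBO1 chromatin immunoprecipitation (ChIP-seq) list lay side by side. Peaks on chromosomes 1 to 19 were sorted by position and joined wherever at most 12.5 kb separated the edges of neighbours, after peaks with summits in a 41-Mb segment of chromosome 3 that begins at 100 Mb had been left out. The members were thus selected on the spacing of the peaks, which comes from the ChIP signal itself. Of the 13823 peaks in the list, 751 lay in the left-out segment and 435 on the sex chromosomes. Of the remaining 12637 peaks, 2189 fell into 531 dense clusters, 2460 were joined in 1230 pairs and 7988 stood alone.

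HBO1 (KAT7) is a MYST family histone acetyltransferase that acts within complexes built on Jade or Brpf scaffold proteins together with ING proteins and Meaf6. These complexes acetylate the tails of histones H3 and H4 and are known for occupying the promoters and the bodies of transcribed genes. In embryonic stem cells (ESCs), pluripotency is maintained by a network of transcription factors centred on Oct4 (Pou5f1), which binds octamer elements alone or beside Sox2, and which can also bind as a dimer to the more palindromic octamer-related element (MORE).

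All 3 samples were labelled as Oct1 deficient mouse ESCs, Oct1 (Pou2f1) being a paralog of Oct4, whereas a supplementary peak table of the study is headed as WT ESCs. They were cultured with LIF under inhibitors of MEK (PD0325901) and GSK3 (CHIR99021) with added vitamin, and formaldehyde was the fixative. The paper describes growth on feeder fibroblasts that were depleted before experiments. Sheared chromatin was immunoprecipitated with anti-HBO1 in 2 samples (ChIP_1 and ChIP_2) and left without immunoprecipitation in 1 (the input). Wild-type cells and a mock immunoprecipitation were not analysed here. Whether the cells were 1 clone is not given in the sources used here, and the antibody label of the second ChIP sample names HBO2 where its title names HBO1. A single peak list stood for both ChIP samples and its values could not be assigned to either, so no value below carries a spread between replicates and no comparison between samples was possible. A list of peaks holds no expression levels, and the labelled cell type could not be checked against marker RNAs. The input held 31973678 mapped read ends, of which 21915284 had a mapping quality of at least 20. The intervals given below are exact 95% binomial intervals for shares and Newcombe intervals for differences of shares. They cover counting error alone and take peaks as independent, whereas the members of a cluster share a locus.

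Loci of several kinds carried dense clusters. Among them were single genes with peaks spread over the body (Jade1, Esrrb, Zmynd8) and compact housekeeping genes (Rpl3 and other ribosomal protein genes). Others were arrays of repeated genes (histone, small nucleolar RNA and ribosomal RNA genes). The sequences shown next come from clusters at single genes or a pair of neighbouring genes, and 3 runs from the arrays follow later. Each is the 300 bases around the summit of the strongest member that overlapped no annotated untranslated region, on the plus strand of GRCm38, with matches to the searched motifs in capitals. They were chosen with the values known, to show what the DNA under the strongest members looks like. The Jade1 window was at chr3:41571457-41571756 in an intron. The window of the Esrrb cluster was at chr12:86525348-86525647 between genes, 20924 bp from any TSS. The Slc2a3 window was at chr6:122737808-122738107 in an exon, and the Zmynd8 window at chr2:165823163-165823462 in an intron. The window of the Srsf3 and Cdkn1a cluster was at chr17:29057978-29058277 in an annotated exon between both genes. Its peak covered an annotated TSS but lay 25294 bp from any protein-coding TSS. The Zfp42 window was at chr8:43299836-43300135 in an intron.
Jade1: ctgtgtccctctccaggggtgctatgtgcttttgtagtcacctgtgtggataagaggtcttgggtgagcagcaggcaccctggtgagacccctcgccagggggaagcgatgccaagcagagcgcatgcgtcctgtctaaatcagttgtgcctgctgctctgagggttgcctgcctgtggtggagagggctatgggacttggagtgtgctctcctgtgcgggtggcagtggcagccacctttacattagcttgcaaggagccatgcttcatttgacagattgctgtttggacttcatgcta
Esrrb: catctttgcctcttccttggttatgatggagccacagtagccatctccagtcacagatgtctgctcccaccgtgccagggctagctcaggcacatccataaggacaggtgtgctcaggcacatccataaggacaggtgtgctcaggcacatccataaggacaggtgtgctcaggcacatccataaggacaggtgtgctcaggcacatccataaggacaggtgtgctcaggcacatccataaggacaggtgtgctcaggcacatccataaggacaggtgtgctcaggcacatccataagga
Slc2a3: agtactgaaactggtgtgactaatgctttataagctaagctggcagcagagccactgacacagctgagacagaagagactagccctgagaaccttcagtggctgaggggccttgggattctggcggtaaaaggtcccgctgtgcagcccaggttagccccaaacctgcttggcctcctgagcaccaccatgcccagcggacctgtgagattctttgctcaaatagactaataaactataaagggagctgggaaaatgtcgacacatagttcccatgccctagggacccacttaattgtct
Zmynd8: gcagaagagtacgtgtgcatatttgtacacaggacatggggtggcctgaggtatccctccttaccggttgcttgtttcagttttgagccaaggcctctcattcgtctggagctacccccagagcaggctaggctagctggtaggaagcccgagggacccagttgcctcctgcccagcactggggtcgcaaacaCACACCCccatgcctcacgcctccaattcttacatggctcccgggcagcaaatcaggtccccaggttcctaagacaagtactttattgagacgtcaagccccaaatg
Srsf3 and Cdkn1a: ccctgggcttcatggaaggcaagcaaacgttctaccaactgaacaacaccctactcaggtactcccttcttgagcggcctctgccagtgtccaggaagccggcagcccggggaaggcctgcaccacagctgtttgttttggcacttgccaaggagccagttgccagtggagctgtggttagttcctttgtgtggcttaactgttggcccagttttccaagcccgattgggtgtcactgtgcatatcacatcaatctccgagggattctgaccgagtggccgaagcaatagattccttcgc
Zfp42: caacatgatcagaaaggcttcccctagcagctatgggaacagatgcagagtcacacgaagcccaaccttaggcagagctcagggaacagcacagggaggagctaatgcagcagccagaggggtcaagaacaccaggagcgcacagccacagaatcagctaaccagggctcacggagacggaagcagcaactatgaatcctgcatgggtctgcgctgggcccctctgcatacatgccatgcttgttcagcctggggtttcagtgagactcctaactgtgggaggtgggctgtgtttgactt

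The capitals in the Zmynd8 window are the reverse complement of a Klf site (GGGTGTG), the only match among these 6 windows to any of the 7 motifs searched. No octamer core was found in them. The GC content of the 6 windows ran from 51.3% to 56.3%, and they held between 1 and 9 CpG dinucleotides. The Esrrb window was built largely of a short tandem repeat: 76.1% of its bases equalled the base 28 positions further on, against 30.6% to 34.7% at the best shift in the other 5 windows.

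Most clusters were small. Exactly 3 peaks formed 297 of the 531 clusters (55.9%), 4 peaks formed 115, and 19 clusters held 10 or more peaks with a maximum of 21. The span of a cluster had a median of 11858 bp and ranged from 1592 to 68293 bp, and the peaks covered a median of 14.7% of it. Neighbouring members were separated by a median of 2673 bp, and 503 of the 1658 gaps (30.3%) were under 1 kb. When peaks at most 1 kb apart were counted as 1 peak, 347 clusters still held 3 or more and 35 shrank to a single peak. At the limit of the joining rule, the widest gap inside a cluster was 12476 bp. The narrowest gap beyond the limit between neighbouring groups that would together hold 3 or more peaks was 12551 bp. The plot of cluster sizes shows how fast the number of clusters fell with size, and the share of members whose sequence recurs in other peaks at larger sizes.

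**Figure D1:**
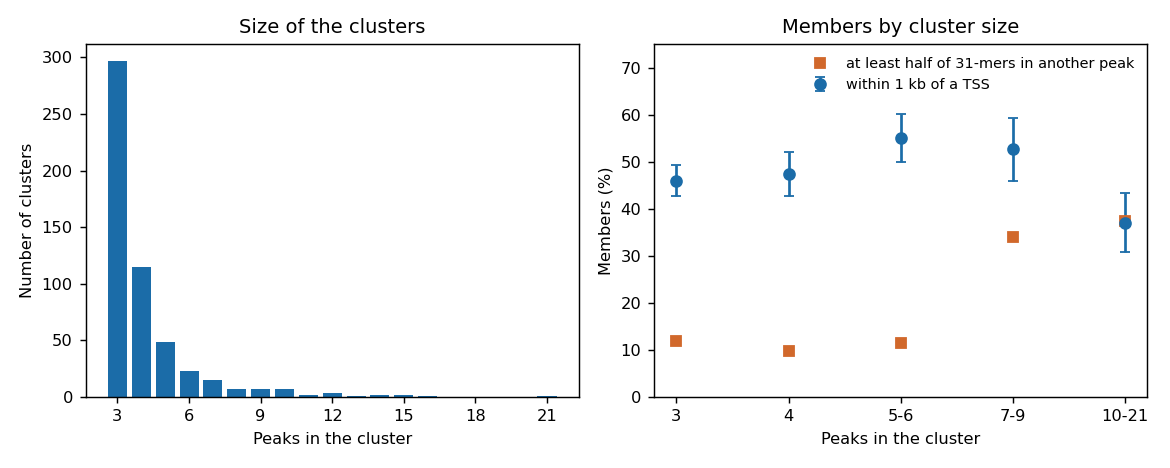
Left, the number of clusters (bars, linear axis from 0) by the number of peaks they hold, with 297 clusters of 3 peaks. Right, the share of members within 1 kb of a transcription start site (circles, exact 95% intervals) and the share with at least 50% of their 31-mers in another peak (squares) by cluster size, the latter 11.8% in clusters of 3 and 37.3% in clusters of 10 or more.

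The enrichment values come from the contrast that chose the members and are given as a description. The fold enrichment over input at the summit had a median of 3.997 among members, 3.70 among paired peaks and 3.62 among single peaks. The median of −log10 q was 8.78, 6.98 and 6.40 in the same order, and the median width was 403 bp among members and 360 bp among single peaks. Members within 1 kb of a transcription start site (TSS) had a median fold enrichment of 3.20 and single peaks there 2.57. Away from any TSS the medians were 4.67 and 4.64.

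The cluster with the most peaks covered Mllt6 and Cisd3 at chr11:97650577-97686029. Mllt6 encodes a PHD finger protein that is a fusion partner of MLL in leukaemia. The cluster held 21 peaks in 35453 bp, 8 of them within 1 kb of a TSS, with fold enrichments from 2.35 to 6.64 and a median of 3.77. Its peaks were closely packed, with a median gap of 956.5 bp, and merging peaks within 1 kb left 11.

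Esrrb, an orphan nuclear receptor that sustains naive pluripotency, carried 16 peaks over 63507 bp at chr12:86462388-86525894. The peak at an annotated start of the gene was among the weakest of the cluster, with a fold enrichment of 2.46 and its edge 56 bp from the nearest TSS. The highest values lay away from this start. Both peaks before it, with their summits in an intron, reached 7.54 and 7.77. They had 5 and 2 input read ends within 1 kb, against 65 at the start. The peaks after it with summits in an exon or intron ran from 1.98 to 5.34. Of the pair of peaks between genes at the far end, the first reached 5.35 and the last, 20924 bp from any TSS, reached 8.77. That last peak was the one with the tandem repeat shown above.

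Jade1, the scaffold subunit that brings HBO1 to histone H3 in the complex the study is about, lay under 14 peaks at chr3:41555941-41614828, all within the gene. The broad peak at its CpG-rich start, 1695 bp wide with a GC content of 74.7%, had a fold enrichment of 2.89 and the neighbouring peak 4.72. Higher values were found along the gene, with 9.34 in an intron 6514 bp from any TSS, 7.83 and 7.45 at an internal start, 7.27 further on and 10.7 in the last peak, whose summit was in a UTR. By −log10 q the order differed. The peak with a fold enrichment of 4.72 had the highest value of the cluster, 38.6, with 69 input read ends within 1 kb. The last peak had 20.6, with 4 input read ends. None of the 14 peaks shared 50% or more of its 31-base words (31-mers) with another peak.

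The cluster from Srsf3 to Cdkn1a, at chr17:29032689-29100981, had the widest span. Srsf3 encodes a splicing factor and Cdkn1a the cell cycle inhibitor p21. It held 14 peaks, of which the peak at the Srsf3 start had a fold enrichment of 4.02. Between both genes 1 peak of 1171 bp, over an annotated TSS that is not protein-coding, reached 9.62, the highest of the cluster. The peak at the far end of the cluster, with its summit in a UTR, reached 8.23. The 2018-bp peak in the Cdkn1a region with a GC content of 72.7% reached 4.27.

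Zmynd8, a reader of histone marks, contained a whole cluster of 12 peaks at chr2:165807543-165852883 with no protein-coding TSS in its span. An intronic peak 28564 bp from any TSS stood out at 13.7-fold (−log10 q 67.0), and the other 11 peaks ran from 2.56 to 8.43. Slc2a3, the gene of a glucose transporter, carried 10 peaks in only 15884 bp at chr6:122726629-122742512. Their fold enrichments ran from 4.13 to 12.8, with the highest in the peak at its start and 12.1 in the peak shown above. The remaining clusters among the 15 with the most peaks that consisted of unique sequence were at Gtsf1l and Mybl2, a cell cycle transcription factor gene (11 peaks, highest fold 5.59), and at Kat6b, which encodes another MYST family acetyltransferase (10 peaks, highest fold 7.01). One more cluster without shared sequence, 11 peaks at chr11:3127165-3178915 near Sfi1, had a median of 382 input read ends within 1 kb and a highest fold of 4.24. In the maps of 6 clusters, the highest fold enrichment at Esrrb, Jade1 and Zmynd8 lay more than 1 kb from any TSS. That at Slc2a3 lay at its start.

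**Figure D2:**
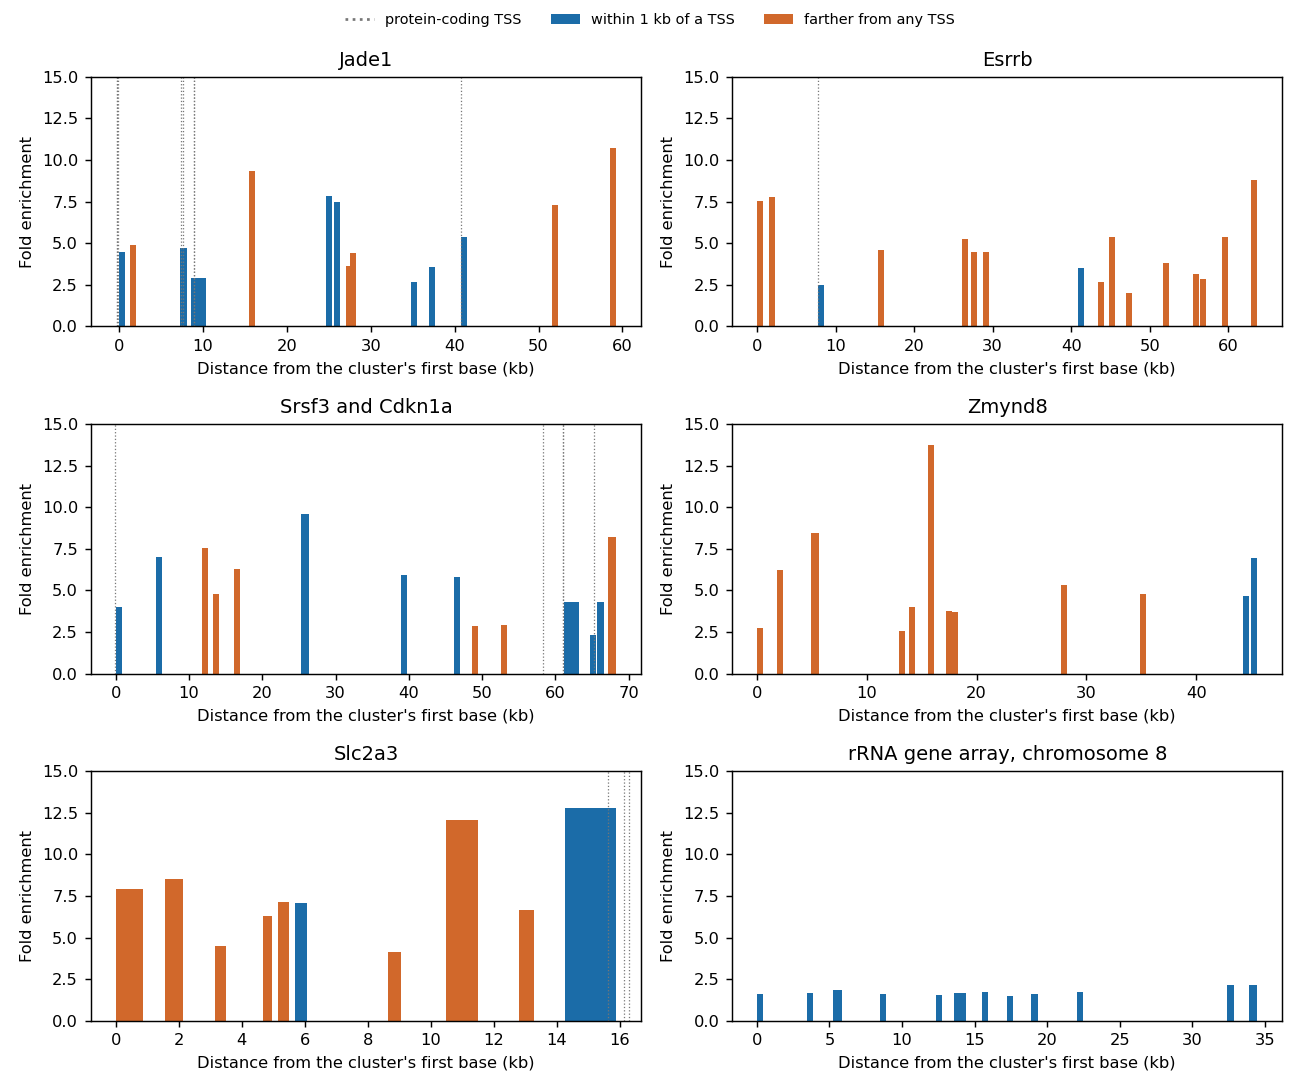
Each panel shows 1 cluster, with the distance from its first base in kb on the x axis and the fold enrichment of each peak on the y axis (bars from 0, blue within 1 kb of a TSS, orange farther away; narrow peaks are drawn at a minimum width), and dotted lines at protein-coding TSSs. The 12 peaks of the rRNA gene array run from 1.47 to 2.18, while the Zmynd8 cluster reaches 13.7 and the Slc2a3 cluster 12.8.

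The 5 members with the highest fold enrichment lay elsewhere. An intronic peak of Slc25a12, the gene of a mitochondrial aspartate-glutamate carrier, reached 23.1 at chr2:71348001-71348514, in a cluster of 4 peaks in 4123 bp. A peak at chr19:5800812-5801485 reached 19.2 with its summit in an annotated exon. The nearest gene of any kind was Gm37376, and no protein-coding TSS was nearer than 29698 bp to its summit. A peak over Rpl3 reached 18.99 at chr15:80082233-80082743. The other two lay on chromosome 4, with 17.5 between genes, 85518 bp from the Zfp980 start, and 17.4 at the start of the zinc finger gene Rex2. These loci had little input, with 5 to 16 read ends within 1 kb of the 5 peaks.

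Genes of the pluripotency network were frequent at dense clusters. Over all 20426 protein-coding genes, 654 (3.2%) had a TSS within a cluster widened by 1 kb on each side. Of 55 pluripotency and ESC regulators, 14 did (25.5%, interval 14.7% to 39.0%), each in a cluster of its own. They were Pou5f1, Klf2, Klf4, Esrrb, Tbx3, Sall4, Sall1, Zfp42, Nr5a2, Tdgf1, Nodal, Trim28, Zic2 and Spry2. Of 50 regulators of differentiated lineages none did, which allows up to 7.11% and cannot be told from the 3.2% of all genes. The lists were chosen with earlier results of these data known, and the counts are descriptions. The count was 7 (12.7%, against 2.33% of all genes) when peaks at most 1 kb apart were merged first, and 4 (7.27%, against 0.80%) among peaks with a −log10 q of at least 10.

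The clusters at the pluripotency genes differed in where their peaks lay. The values are those of whole clusters, which can hold starts of other genes too. The cluster at Trim28, a corepressor that silences retroelements, held 7 peaks with a highest fold enrichment of 9.65. Of these, 6 lay within 1 kb of a TSS of any gene. Tbx3, a T-box factor of naive ESCs, carried 6 peaks reaching 7.75. Zfp42 (Rex1), a marker of naive ESCs, carried 4 peaks with fold enrichments of 9.74, 4.70, 11.0 and 6.02, and the nearest to its start was the last. Pou5f1 carried 4 peaks at chr17:35506365-35516243 with fold enrichments of 1.93, 5.16, 3.43 and 2.23. The clusters at Klf4, a Krüppel-like factor (highest fold 3.24), Sall4, a zinc finger factor (3.69), and Zic2 (2.44) had all their members within 1 kb of a TSS. Nodal, a TGF-β family ligand (6.98), Tdgf1, its co-receptor (7.15), and Klf2 (5.72) had at least 1 member farther away. For Tfcp2l1, a factor of the naive network, a cluster of 3 peaks without any gene start lay 22427 bp from its TSS and reached 8.01.

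Peaks of any kind were frequent at these genes too. Of the 55 pluripotency genes, 33 had any peak within 1 kb of a TSS (60%), against 4380 of all protein-coding genes (21.4%) and 2 of the lineage regulators (4.0%). The number of genes in dense clusters was 42.4% of the number with such a peak for the pluripotency genes and 14.9% for all genes. These are ratios of counts, since a TSS can lie in a cluster without a peak within 1 kb of it. Among 9 genes of HBO1 complex subunits, Jade1 and Brpf1, the gene of the alternative scaffold (3 peaks, highest fold 4.39), were in clusters (22.2%). Of 14 genes of Wnt pathway feedback only Cdx1 was in a cluster (7.14%). Of 10 MORE-containing genes that the study names none was, which allows up to 30.8% and cannot be told from the 3.2% of all genes. Of these 10, 4 had a peak within 1 kb of a TSS. At a joining distance of 25 kb, 2 of these 10 were in clusters (20%, against 6.26% of all genes).

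Ribosomal protein genes were frequent at dense clusters too. Of 91, 33 had a TSS in a cluster (36.3%, interval 26.4% to 47.0%), spread over 32 clusters. Of the 127 peaks of these clusters 97 lay within 1 kb of a TSS (76.4%), and the highest fold enrichment per cluster had a median of 5.92. With peaks at most 1 kb apart merged, 18 of the 91 genes were left in clusters (19.8%, against 2.33% of all genes). The count was 17 (18.7%, against 1.73%) with 4 or more peaks required, 16 (17.6%, against 0.80%) among peaks with a −log10 q of at least 10, and 0 (against 0.093%) when only peaks over 1 kb from any TSS were joined. The Rpl3 cluster was exceptional, with 9 peaks in 7822 bp that ran from 3.91 to 18.99 along the gene. Merging peaks within 1 kb left 2. The highest values at Rps24, Rpl11, Rps15a and Rps2 were 10.7, 10.2, 9.74 and 9.74. The Rps2 peak was the only strongest octamer-bearing member of a named cluster whose window overlapped no annotated untranslated region, and it is shown here for that reason, from chr17:24722704-24723003 in an exon, with the octamer core on the minus strand in capitals.
Rps2: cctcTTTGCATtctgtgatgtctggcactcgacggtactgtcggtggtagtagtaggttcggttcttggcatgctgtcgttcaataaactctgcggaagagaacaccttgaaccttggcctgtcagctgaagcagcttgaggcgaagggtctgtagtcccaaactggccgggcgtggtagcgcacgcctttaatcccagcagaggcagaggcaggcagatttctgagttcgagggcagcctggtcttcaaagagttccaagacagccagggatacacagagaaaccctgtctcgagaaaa

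The plot of gene lists sets these counts side by side. Clustered histone genes had the highest share, 54 of 67 (80.6%), but they lie next to each other and fell into 11 clusters. Without peaks that share 31-mers with another peak, 1 of the 67 was left in a cluster (1.49%, against 2.77% of all genes). Of these 11, 8 lay on chromosome 13, and they held 50 peaks, of which 46 had at least 50% of their 31-mers in another peak. Hox genes (2 of 39, Hoxc12 and Hoxc13 in 1 cluster with a highest fold of 2.58) and zinc finger protein genes (18 of 385, 4.68%) were near the share of all genes.

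**Figure D3:**
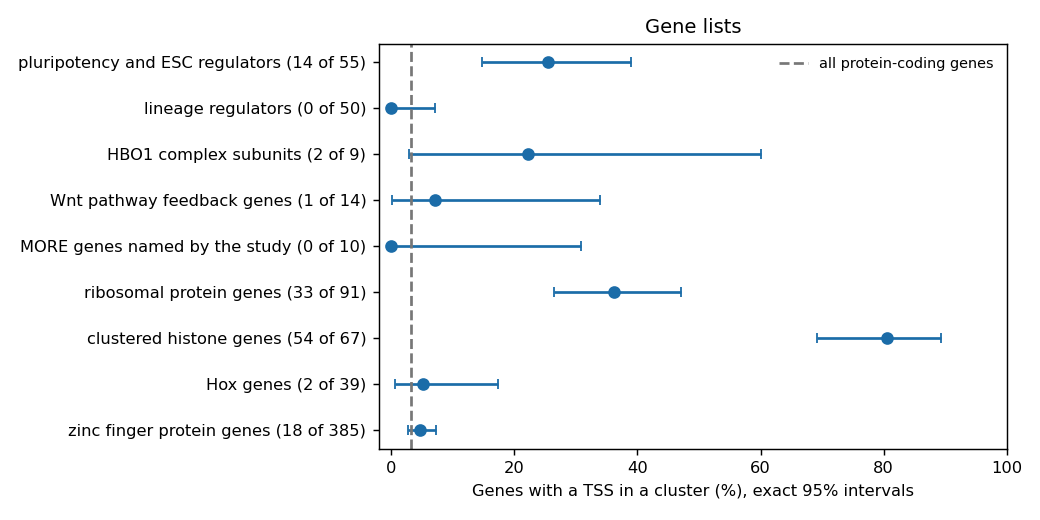
For each gene list, the percentage of its genes with a TSS in a dense cluster widened by 1 kb (points, exact 95% intervals, counts on the y axis), with the share of all protein-coding genes, 3.2%, as a dashed line. Histone (80.6%), ribosomal protein (36.3%) and pluripotency genes (25.5%) sit to the right of the line, and the lineage regulators are at 0. Without peaks that share 31-mers the histone share is 1.49%.

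Position relative to genes was not used by the rule and could be compared, though the spacing of peaks need not be independent of that of genes. Of the 2189 members, 47.5% lay within 1 kb of an annotated TSS, against 44.3% of paired peaks and 40.5% of single peaks, and 42.5% of all 12637 peaks. The difference from single peaks was 6.97 percentage points (interval 4.63 to 9.33). For starts of protein-coding transcripts alone the shares were 35.0% and 34.4%, a difference of 0.65 points (−1.58 to 2.92). With only the member of highest fold enrichment in each cluster counted, 37.7% lay within 1 kb of a TSS (interval 33.5% to 41.9%). Fold enrichment was higher away from a TSS, and single peaks were not picked by it. This share therefore cannot be set against theirs. Split by the GC content of the 300 bases at the summit, members were more often near a start in each class below 70%, with differences from 12.0 to 27.1 points. At 70% or more nearly all peaks were near a start, 96.5% of members and 98.0% of single peaks (difference −1.51, interval −4.22 to 0.19).

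Dense clusters lay in gene-rich surroundings. Of the members, 46.8% had 3 or more protein-coding genes within 50 kb, against 22.2% of single peaks (difference 24.6 points, 22.3 to 26.9), and 14.3% against 31.5% had none. Members were selected for other peaks close by and single peaks for none within 12.5 kb, and 42.5% of all peaks lay near a start. The contrast is thus not independent of the rule, and the part of the rule in it was not tested. A gene is also counted again for each member near it. The summit of 25.5% of members and of 15.7% of single peaks was in an exon outside untranslated regions (difference 9.74 points, 7.78 to 11.8), and between genes it was 21.3% and 32.1%. Among the peaks more than 1 kb from any TSS the exon shares were 12.4% and 5.35% (difference 7.10 points, 5.19 to 9.22). Per cluster, 116 (21.8%) had no member within 1 kb of a TSS, 92 (17.3%) had all members there and 323 had both kinds. Among the 116, 49 lay inside a protein-coding gene and 51 touched none. One of them, named after its values were seen, lay within Arntl, a core circadian clock gene, with 5 peaks that reached 9.99.

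**Figure D4:**
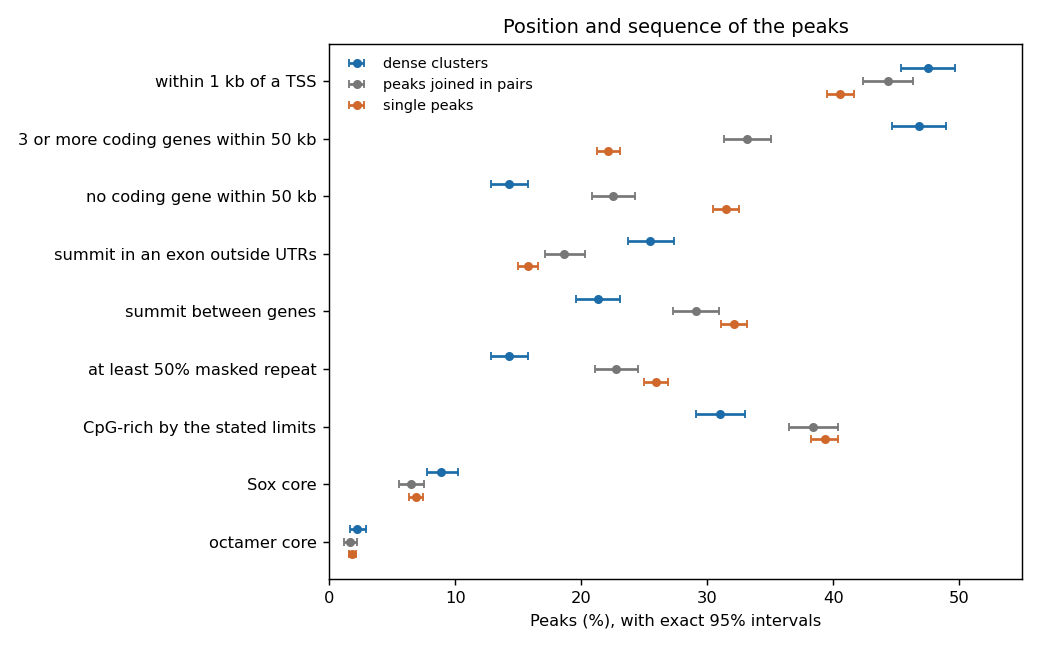
Percentage of peaks (x axis, points with exact 95% intervals) in dense clusters, in pairs and alone that have each feature named on the y axis. Members are above single peaks for gene-rich surroundings (46.8% against 22.2%) and exonic summits (25.5% against 15.7%), below them for masked repeats (14.3% against 25.9%), and the octamer core is rare in all 3.

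Over all peaks, repeats and CpG-rich sequence were less frequent under members than under single peaks. Soft-masked repeats made up at least 50% of the window in 14.3% of members and 25.9% of single peaks (difference −11.7 points, −13.4 to −9.88). Near a start the order was the opposite, 5.77% of members and 3.03% of single peaks (difference 2.74 points, 1.32 to 4.42), and farther away it was 21.9% and 41.5%. Windows with a GC content of at least 55% and an observed-to-expected CpG ratio of at least 0.6, a usual mark of CpG islands, were 31.02% and 39.3%. Among peaks near a start the CpG-rich shares were further apart, 58.4% and 78.8% (difference −20.4 points, −23.7 to −17.1).

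The octamer core, ATGCAAA on either strand, was rare in all groups. It was found in the 300-base window of 2.24% of members, 1.83% of single peaks and 1.86% of all 12637 peaks. Among 47917 windows of the same length spaced 50 kb apart over the genome it was in 7.25%. The genomic windows were not matched to the peaks in GC content, whose median was 57% in members. Shares in genomic windows, here and below, are therefore no measure of depletion or enrichment of a motif. The difference between members and single peaks was 0.41 points (−0.22 to 1.17). In 48 of the 531 clusters any member held it. The MORE, 2 tandem copies of ATGCAT with 1 mismatch allowed, was in 0 of 2189 members, with an exact upper limit of 0.168%, in 0.038% of single peaks and in 0.363% of genomic windows. The Sox core CATTGT was more frequent in members, 8.91% against 6.90% (difference 2.01 points, 0.75 to 3.39), and 18.3% of genomic windows held it. Sox core, 1 base and octamer core side by side, with 2 mismatches allowed, was in 0.23% and 0.24%. The E-box CACGTG was in 7.21% of members near a start and 4.48% of single peaks there (difference 2.73 points, 1.12 to 4.59). Against paired peaks near a start the difference was 0.42 points (−1.75 to 2.62), and between members and single peaks over 1 kb from any TSS it was 0.50 points (−0.86 to 2.09). Over all members the E-box was in 6.35% and the Klf site in 8.91%, against 3.04% and 5.08% of genomic windows. For the Klf site the difference from single peaks was 1.12 points (−0.16 to 2.51), and for the nuclear receptor element AAGGTCA it was −0.05 points (−0.87 to 0.90).

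In a portion of the dense clusters the members shared sequence with other peaks. The 300 bases around each summit were cut into overlapping 31-base words and compared with those of all other peaks in the list. A shared word could lie in the same cluster or anywhere else, so sharing does not show that members of a cluster are copies of each other. In 74 clusters (13.9%) at least 50% of the members had at least 50% of their words in another peak, and among the 33 clusters of 8 or more peaks there were 14. In 38 clusters every member did. Over all members the share was 16.3%, lower than the 20.2% of single peaks, but near starts it was 11.6% against 3.27% (difference 8.36 points, 6.43 to 10.5).

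The arrays differed in enrichment. On chromosome 7, 3 clusters with 23 peaks, 22 of them with shared words, covered 11, 14 and 10 annotated small nucleolar RNA genes between chr7:59728729 and chr7:59884850. Their fold enrichments ran from 3.43 to 14.1 at a median of 14 input read ends per kb. On chromosome 8, 10 clusters from 19700110 to 20828106 held 83 peaks, 73 with shared words and 7 near a TSS, with fold enrichments from 1.53 to 12.2, a median of 4.05 and a median of 62 input read ends. On chromosome 4, 12 clusters around zinc finger genes from 145446092 to 148092877 held 47 peaks, 24 with shared words, with fold enrichments from 1.54 to 17.5 and a median of 6.29. The array of 21 annotated ribosomal RNA genes at chr8:123538849-123573347 had 12 peaks with fold enrichments of 1.47 to 2.18 and a median of 298 input read ends. The 13 peaks at chr6:47654842-47686356 ran from 1.30 to 2.14 at a median of 674 input read ends. One run of 60 bases per array is given here, in the orientation that sorts first, to show what its members share. The snoRNA run was held by 5 of 7 members, the rRNA run by 8 of 12, and the run of the 15-peak cluster at chr8:20647499-20688647 by 13. That last cluster reached a fold enrichment of 4.77. The first copies were at chr7:59728897-59728956, chr8:123542480-123542539 and chr8:20647599-20647658.
snoRNA array: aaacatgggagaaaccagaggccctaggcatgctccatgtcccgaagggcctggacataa
rRNA array: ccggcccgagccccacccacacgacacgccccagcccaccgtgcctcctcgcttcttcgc
chromosome 8 array: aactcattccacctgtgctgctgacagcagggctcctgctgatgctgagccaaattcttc

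The plot of enrichment against input depth covers all clusters. Median input over 200 read ends per kb was found in 7 clusters, and their highest fold enrichment lay between 1.54 and 4.24. In 6 of them at least 50% of the members had shared words. Of the 28 clusters whose highest fold enrichment was over 10, 10 had shared words in at least 50% of their members. The mapping quality of the input read ends within 1 kb of members differed between the arrays. The share of these ends with a quality of at least 20 was 1.505% in the rRNA array, 2.50% in the chromosome 6 cluster at chr6:47654842-47686356 and 7.16% in the 15-peak cluster on chromosome 8. It ran from 16.5% to 49.5% in the 3 snoRNA clusters and from 12.1% to 97.2% in the 8 histone clusters on chromosome 13. Near a start, 7.69% of members and 2.38% of single peaks had under 50% of such well-mapped ends (difference 5.31 points, 3.73 to 7.16). Over all peaks the shares were 12.2% and 15.3% (difference −3.12 points, −4.65 to −1.49). The part of shared sequence in the number of peaks was not tested. When peaks with shared words were left out before joining, an alternative chosen after seeing the data, 441 clusters with 1752 peaks were left. The shares in clusters were then 25.5% of the pluripotency genes (14 of 55), 35.2% of the ribosomal protein genes (32 of 91) and 1.49% of the histone genes (1 of 67), against 2.77% of all genes.

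**Figure D5:**
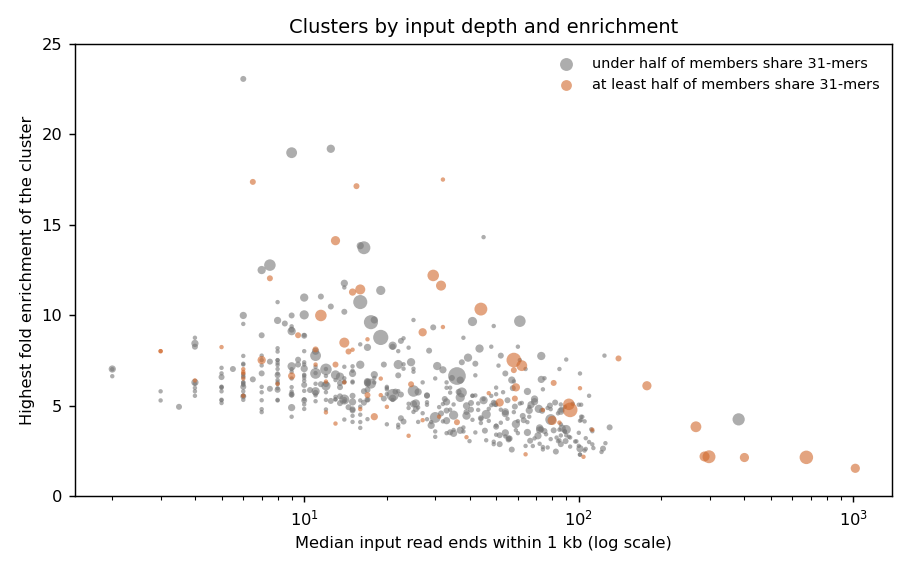
Each point is 1 of the 531 clusters, with the median number of input read ends within 1 kb of its members on a log x axis and its highest fold enrichment on the y axis. Point area grows with the number of peaks, and clusters in which at least 50% of the members share 31-mers with other peaks are orange. The 7 clusters over 200 read ends all stay at or below 4.24.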

How the data were processed

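HBO1 ChIP-seq was done by the authors in Oct1 deficient mouse ESCs (2 ChIP samples, 1 input). The submitters' processing notes name Novoalign 4.03.01, MACS2 and mm10, and the methods give a q threshold of 0.005 and a max-gap of 100. The deposited peak list gives fold enrichment as a ratio, −log10 p and −log10 q values and the summit offset. How both ChIP samples were combined is not stated. The deposited input file lists read ends with a mapping quality score. The peak score and −log10 p columns were not used.

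Peaks were joined as described, and distances were taken from peak edges to GENCODE M21 transcript starts. Sequence came from the RefSeq copy of GRCm38.p6. Shares were compared with exact (Clopper-Pearson) and Newcombe 95% intervals. The code was tested on simulated data. Named genes were those at the 15 clusters with the most peaks, the listed genes in clusters, pluripotency genes nearest to a cluster (within 100 kb), and those at the 5 strongest members. Arntl, Pfkp, Klhdc4, Hsp90ab1, Brd2 and Ftl1 fall outside this rule and were named after their values were seen. Members, lists and rules were chosen with earlier results of these data known. Python 3.11.15, scipy 1.17.1, pandas 2.3.3 and pysam 0.24.0 were used.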

Additional observations from a re-analysis of the deposited data

How the results depend on the processing

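No paired analysis was possible because the single peak list carries no sample, and for the same reason no replicate could be left out. The number of clusters and of members followed the joining rule: 304 and 1193 at 5000 bp, 804 and 3510 at 25000 bp, 234 and 1298 with 4 or more peaks required, 117 and 497 among peaks with −log10 q of at least 10, 347 and 1353 after merging peaks within 1 kb, and 189 and 734 when only peaks over 1 kb from any TSS were joined. The share of members within 1 kb of a TSS was 55.9% at −log10 q of at least 10, 44.2% after merging, 43.4% without peaks of over 100 input read ends in 1 kb, 44.7% measured from the summit, 35.0% for protein-coding transcripts, 37.7% with 1 member per cluster and 50.6% without peaks that share 31-mers. The share of clusters with no such member was 25.7% at 5000 bp, 17.9% at 25000 bp, 14.5% with 4 or more peaks, 15.4% at −log10 q of at least 10, 28.0% without peaks of high input, 29.2% for protein-coding transcripts and 16.8% without peaks that share 31-mers. The share of members with an octamer core was 1.61% at −log10 q of at least 10, 3.20% with 1 member per cluster and 1.19% in 200 bases. Leaving the chromosome 3 segment out after joining changed none of the 5 values. The count of pluripotency genes in clusters ran from 1 of 55 when only peaks over 1 kb from any TSS were joined (1.82%, against 0.093% of all genes) to 21 at 25000 bp (38.2%, against 6.26%). It was 4 at −log10 q of at least 10 (7.27%, against 0.80%), 7 after merging (12.7%, against 2.33%), 9 with 4 or more peaks (16.4%, against 1.73%) and 11 without peaks of high input (20%, against 2.29%), and the cause was not tested. Of the 10 MORE genes, 2 were in clusters at 25000 bp and 0 under each other setting. No lineage regulator (0 of 50) entered a cluster under any of these settings, where the share of all genes ran from 0.093% to 6.26%. Depth of the ChIP samples was not analysed here.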

Other observations

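Members were unevenly spread over the chromosomes. Over chromosomes 1 to 19, 2189 of the 12637 peaks were in dense clusters. Chromosome 8 had 218 of its 765 peaks in them (28.5%), and chromosome 16 had 31 of 441 (7.03%). Of the 218 on chromosome 8, 83 lay in the clusters from 19700110 to 20828106, 73 of them with shared words, and 12 in the rRNA array. Short tandem repeats were taken here as windows in which at least 80% of bases equal the base 10 to 60 positions further on. They were found under 20 of the 2189 members (0.91%, interval 0.56% to 1.41%) and 102 of the 7988 single peaks (1.28%, 1.04% to 1.55%). The Esrrb window shown above, at 76.1%, fell below this limit and is not among the 20. All 5 members of a cluster in an intron of Pfkp, a glycolytic phosphofructokinase gene, at chr13:6605844-6612676 passed the limit, with fold enrichments from 3.66 to 6.64. So did 3 of the 10 members at Klhdc4 on chromosome 8. Both loci were named after their values were seen.

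Other clusters with a highest fold enrichment over 10, also named after their values were seen, lay at Hsp90ab1, the gene of a cytosolic chaperone (5 peaks, 13.8), Brd2, a bromodomain protein gene (7 peaks, 11.4), and Ftl1, the ferritin light chain gene (6 peaks, 11.0).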
